A study of Homo sapiens with 12 samples.

Results

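The photoreceptor program described here comprises 9 genes that group 3 medulloblastoma, a childhood tumor of the cerebellum, shares with retinal photoreceptors and the pineal gland: OTX2, CRX, NRL, RD3, PDE6H, GNB3, AANAT, RCVRN and IMPG2. Their probe sets were chosen by gene symbol, current or former, without use of measured values. The 9 genes themselves were chosen with earlier results of these data known. This gave 13 probe sets of 54613 tested, and 9 genes of the 19775 that had a probe set with a single symbol. OTX2, CRX, NRL and IMPG2 had a pair of probe sets each, and the other genes had 1 each. HD-MB03 is a MYC-amplified line grown from a human group 3 medulloblastoma, and entinostat, also called MS275, inhibits class I histone deacetylases, which remove acetyl groups from histones. HD-MB03 cultures received 1 µM entinostat for 24 h or 48 h, or DMSO, the solvent, for the same times, with 3 biological replicates in each of the 4 groups. The titles name DMSO for the control arrays, whereas another label calls them untreated. All 12 arrays thus came from 1 cell line in culture, without the other cells of a tumor or a retina. The comparisons below address how the photoreceptor genes responded to class I HDAC inhibition in these cells and whether the response changed between 24 h and 48 h.

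In the retina and the pineal gland the homeobox factors OTX2 and CRX bind the promoters of photoreceptor genes, and the leucine zipper factor NRL acts with CRX to turn on rod genes. Light activates an opsin, the opsin activates the G protein transducin, and transducin removes the inhibitory subunits of phosphodiesterase 6, which then breaks down cyclic GMP. Guanylate cyclases restore cyclic GMP under the control of calcium-binding proteins and of RD3. The pineal gland shares much of this machinery and uses AANAT to make melatonin. In medulloblastoma, high OTX2 and a set of photoreceptor transcripts are known features of group 3 tumors.

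Each probe set was read on Affymetrix Human Genome U133 Plus 2.0 arrays as a linear intensity normalized between arrays, and log2 was taken for the tests. A log2 fold change is the difference of mean log2 intensities, entinostat minus DMSO. Array medians ran from 80.6 to 81.8 and the lowest value was 36.7, so a background level remains in every value and may shrink the fold changes of dim probe sets. A probe set with a mean log2 under 7 (an intensity of 128) in every group is called dim here, since the values carry no detection call. Within groups, arrays correlated at 0.993 to 0.9945 across probe sets. A difference was called at an adjusted p under 0.05 from limma, with Benjamini-Hochberg adjustment over all probe sets. On bulk RNA, fewer cells with a transcript and less of it per cell cannot be told apart.

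Among the 13 probe sets, the large falls were those of RD3 and IMPG2 at both times and of AANAT and GNB3 at 48 h, and the large rise was that of PDE6H. At 24 h 9 of the 13 were called, 2 higher and 7 lower, where 25.2% of all probe sets were called, 12.8% higher and 12.4% lower. At 48 h 8 were called, 2 higher and 6 lower, beside 26.1% of all, 12.9% higher and 13.2% lower. With both times in an additive model of treatment and time, 10 were called, 2 higher and 8 lower. The same model called 32.7% of all probe sets, 15.7% higher and 17% lower. These shares include many dim probe sets: by the probe set of the highest mean, 9700 of all 19775 genes were dim, against 1 of the 9. With dim probe sets left out, 9 member probe sets were called over both times. A probe set bright in 1 group alone was kept. PDE6H passed only through entinostat at 48 h (mean 182) and CRX 217510_at only through DMSO at 48 h (mean 138). Such calls are not independent of the filter. Of the 10092 genes tested with dim probe sets left out, 33.5% were higher and 34.2% lower. These shares are by gene, and the share of all probe sets under the filter was not computed. How much of the gap to all probe sets goes with brightness was therefore not tested. The median log2 fold change of the 13 was -0.36 at 24 h and -0.44 at 48 h, and that of all probe sets -0.03 and -0.02. Regardless of sign, the median was 0.45 and 0.77 for the 13, and 0.11 for all probe sets at either time. By gene, PDE6H and RCVRN were higher over both times. OTX2, CRX, RD3, GNB3, AANAT and IMPG2 were lower in at least 1 probe set, and NRL did not pass in this model.

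**Figure D1:**
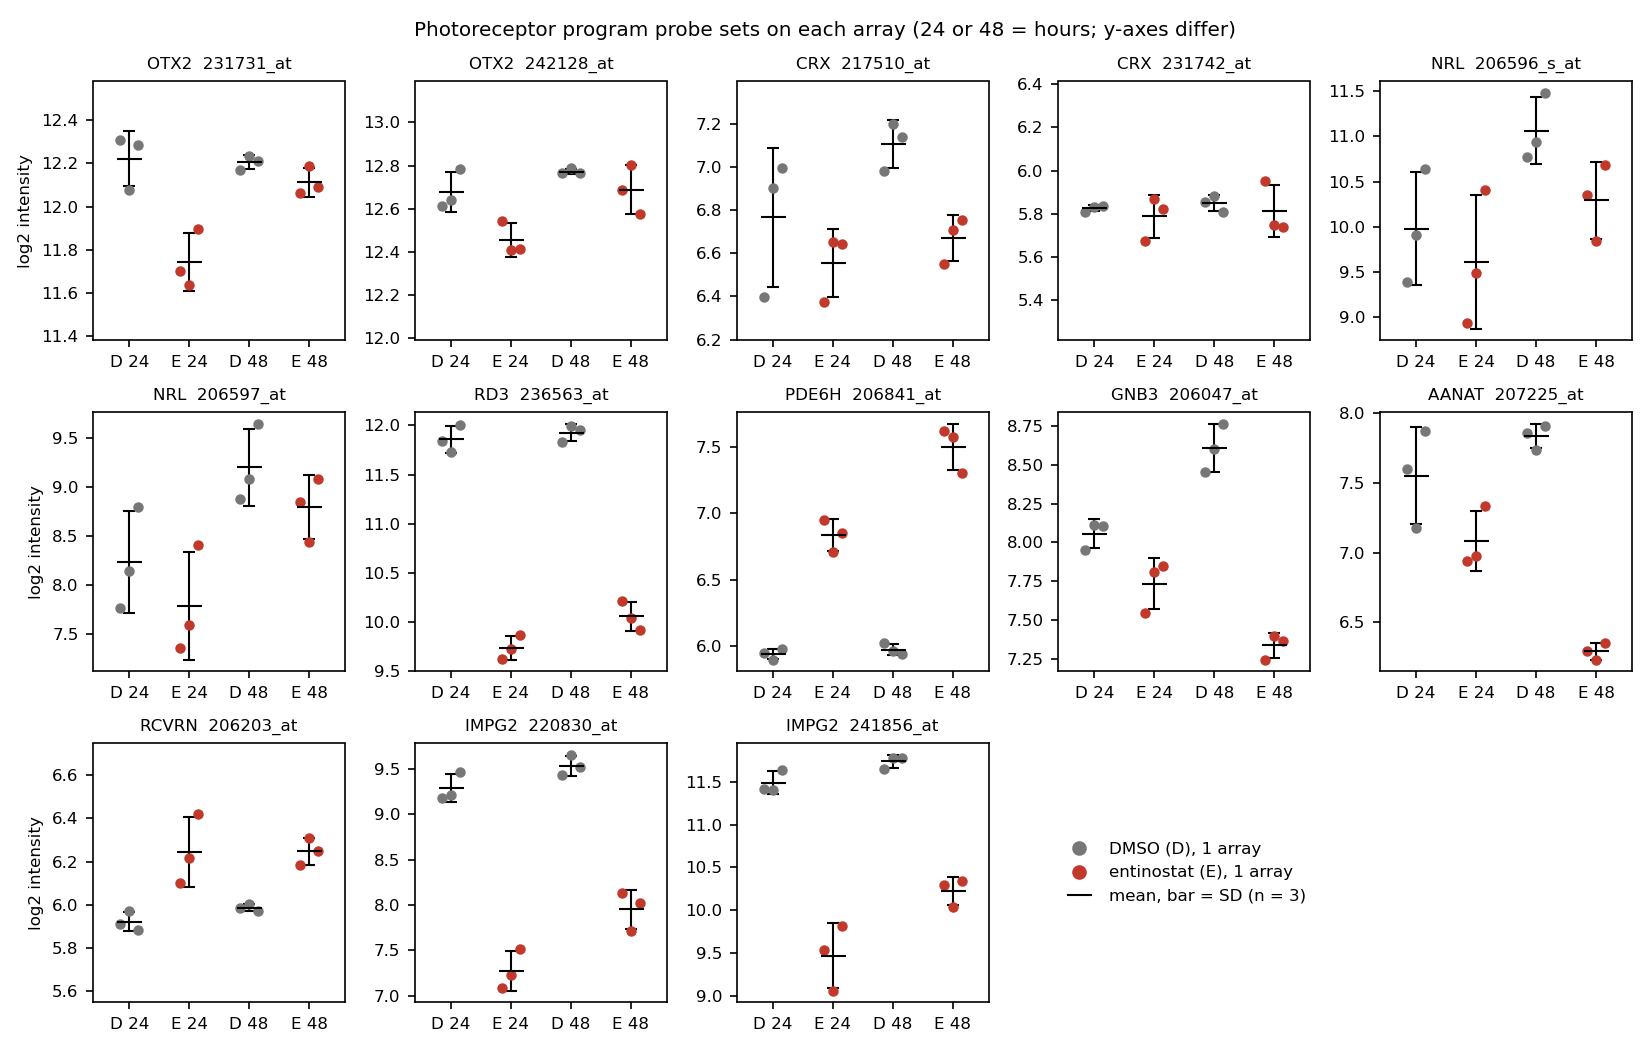
Log2 intensity of each of the 13 probe sets on every array (points, DMSO in grey, entinostat in red; D 24, E 24, D 48 and E 48 name treatment and hours), with the mean and SD of the 3 arrays in each group; the y-axes differ. RD3 and both probe sets of IMPG2 lay lower on every entinostat array than on any DMSO array, PDE6H and RCVRN lay higher, and the NRL arrays of a group spread widely.

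OTX2, the homeobox factor at the top of the program, fell at 24 h and lay near the DMSO level at 48 h. Probe set 231731_at read 5071, 4316 and 4986 in DMSO at 24 h and 3335, 3181 and 3809 in entinostat. After 48 h it read 4613, 4821 and 4746 in DMSO and 4276, 4666 and 4358 in entinostat. The 24 h groups did not overlap, while at 48 h the highest entinostat array lay above the lowest DMSO array. The log2 fold change was -0.48 (standard error 0.08, adjusted p = 0.000546 from limma) at 24 h and -0.09 (adjusted p = 0.467) at 48 h, and the interaction, the log2 fold change at 48 h minus that at 24 h, was 0.38 (adjusted p = 0.131), so a difference between the times was not established. Probe set 242128_at read 6259, 6376 and 7049 in DMSO against 5970.2, 5433 and 5449 in entinostat at 24 h. The 48 h arrays read 6956, 7068 and 6959 in DMSO against 6602, 7142 and 6097 in entinostat. Entinostat was thus lower on every array at 24 h, and at 48 h the highest entinostat array exceeded the highest DMSO array. Its log2 fold change was -0.22 (standard error 0.07, adjusted p = 0.0312) at 24 h and -0.08 (adjusted p = 0.457) at 48 h. The 24 h call of 242128_at was lost when DMSO replicate 3 (-0.17) or entinostat replicate 2 (-0.20) or 3 (-0.20) of 24 h was left out.

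CRX, which drives rod and cone genes together with OTX2, was measured near the dim limit. Probe set 217510_at read 84.3, 119.8 and 128 in DMSO at 24 h and 82.9, 100.6 and 99.9 in entinostat. At 48 h the readings were 126.5, 147 and 141 in DMSO and 93.7, 104.5 and 108 in entinostat, with no overlap between the groups. Entinostat gave a log2 fold change of -0.21 (adjusted p = 0.324 from limma) at 24 h and -0.44 (standard error 0.14, adjusted p = 0.0324) at 48 h. The 48 h call was lost without DMSO replicate 2 (-0.39) or 3 (-0.42) or entinostat replicate 1 (-0.38) or 2 (-0.46) of 48 h, and with 30 subtracted from every intensity (-0.59, adjusted p = 0.0517). Without DMSO replicate 1 of 24 h, the array with the lowest DMSO reading, CRX was also called at 24 h (-0.39, adjusted p = 0.0144). The other CRX probe set, 231742_at, was dim and read between 51.1 and 61.8 on all arrays, with log2 fold changes of -0.04 at both times.

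NRL, which directs precursors to the rod fate, had lower group means in entinostat at both times but was not called in the main fit. Probe set 206596_s_at read 671, 964 and 1593 in DMSO at 24 h against 492, 722 and 1359 in entinostat. The 48 h values were 1749, 1966 and 2852 in DMSO against 1306.5, 921 and 1652 in entinostat. Within each group the arrays spread more widely than the group means differed at 24 h, and at 48 h every DMSO array lay above every entinostat array. The log2 fold changes were -0.36 (standard error 0.38, adjusted p = 0.565 from limma) and -0.77 (adjusted p = 0.174). In a fit of the 48 h arrays alone the latter was called (adjusted p = 0.0481). Probe set 206597_at read 218, 282.5 and 445 in DMSO against 164, 193 and 340.1 in entinostat at 24 h. At 48 h these were 469.9, 542 and 798 against 461, 347 and 543, and the groups overlapped at both times. Its log2 fold changes were -0.45 (standard error 0.31, adjusted p = 0.355) and -0.41 (adjusted p = 0.408). With 1 array left out, the 24 h values ran from -0.76 to -0.029 for 206596_s_at and from -0.76 to -0.17 for 206597_at, and the 48 h values from -0.96 to -0.54 and from -0.57 to -0.19. The residual SDs of the 2 NRL probe sets, 0.56 and 0.46 on the log2 scale, were at the 99.9th percentile of all probe sets. Over both times the log2 fold change of 206596_s_at was -0.57 (adjusted p = 0.123), and it was called without DMSO replicate 1 (-0.72) or entinostat replicate 3 (-0.76) of 24 h. That of 206597_at was -0.43 (adjusted p = 0.146), and it was called without entinostat replicate 3 of 24 h (-0.57). In both probe sets each entinostat array read below the DMSO array of the same number and time. With the replicate number as a term in the model, both were called over both times (adjusted p = 0.00965 and 0.00475 from limma). The lack of a call in the main fit thus depends on how replicates are treated.

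To set the sequences that OTX2, CRX and NRL are known to bind beside these values, the 250 bases upstream of each RefSeq transcription start (GRCh38.p14) were searched on both strands for TAATCC, the OTX2/CRX core, for TAATCT, a variant of it, and for TGCTGA, part of the NRL site. Of the 9 genes, 7 had an entry, with 9 promoters in all, and none is printed for GNB3 and RCVRN. The core lay in 1 of the 9 promoters, that of CRX, the variant in 2 and the NRL letters in 1. Of all 35116 promoters listed, 5.62% held the core, 6.41% the variant and 14% the NRL letters. The 4 promoters with a match are shown, 5′ to 3′ on the strand of the gene and ending just before the start site, because they belong to a gene that rose, a pair that fell and one of the factors themselves. Capitals mark the matches, all of them on the opposite strand, and no match overlapped another. In CRX the core (GGATTA) lay 164 to 159 and 85 to 80 bases upstream, in PDE6H and IMPG2 the variant (AGATTA) lay 64 to 59 and 81 to 76 bases upstream, and in RD3 the NRL letters (TCAGCA) lay 218 to 213 bases upstream. The variant was thus present both in PDE6H, which rose, and in IMPG2, which fell. A match is a run of letters and does not show binding.
CRX, chr19:47821687-47821936, forward strand: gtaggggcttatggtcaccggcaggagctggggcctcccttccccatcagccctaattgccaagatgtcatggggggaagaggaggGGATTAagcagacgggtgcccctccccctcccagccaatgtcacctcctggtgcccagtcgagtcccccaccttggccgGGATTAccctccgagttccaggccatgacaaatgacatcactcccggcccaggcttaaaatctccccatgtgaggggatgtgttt
PDE6H, chr12:14972792-14973041, forward strand: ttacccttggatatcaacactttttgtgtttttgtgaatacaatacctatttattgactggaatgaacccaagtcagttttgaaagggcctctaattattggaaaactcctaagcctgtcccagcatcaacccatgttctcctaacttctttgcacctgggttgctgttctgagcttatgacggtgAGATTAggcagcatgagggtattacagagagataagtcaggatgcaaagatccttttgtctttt
IMPG2, chr3:101320576-101320825, reverse strand: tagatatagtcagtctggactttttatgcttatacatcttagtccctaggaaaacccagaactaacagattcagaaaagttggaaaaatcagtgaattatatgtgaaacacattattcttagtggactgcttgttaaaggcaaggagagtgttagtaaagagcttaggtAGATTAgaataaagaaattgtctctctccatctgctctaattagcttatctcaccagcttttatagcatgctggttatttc
RD3, chr1:211492163-211492412, reverse strand: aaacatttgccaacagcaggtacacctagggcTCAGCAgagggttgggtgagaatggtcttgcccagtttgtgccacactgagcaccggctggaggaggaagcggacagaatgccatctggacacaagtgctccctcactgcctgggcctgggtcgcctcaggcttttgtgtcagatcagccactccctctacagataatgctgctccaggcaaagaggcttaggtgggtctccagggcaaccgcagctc

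RD3, which holds retinal guanylate cyclases inactive and helps move them to the outer segment, had the largest fall of the 9 genes at both times. Probe set 236563_at read 3675, 3383 and 4103 in DMSO at 24 h and 788, 847.5 and 933 in entinostat. After 48 h it read 3642, 4072 and 3977 in DMSO and 1185, 1050.3 and 968 in entinostat. The lowest DMSO array was thus above the highest entinostat array by a wide margin. This gave a fold change of -2.12 on the log2 scale (standard error 0.09, adjusted p = 1.67e-08 from limma) at 24 h and -1.87 (adjusted p = 3.43e-08) at 48 h, that is, levels 4.34-fold and 3.66-fold lower. The interaction was 0.25 (adjusted p = 0.484).

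IMPG2, a proteoglycan of the matrix between photoreceptors and a marker of group 3 tumors, fell in both of its probe sets by about as much as RD3. Probe set 241856_at read 2738, 2708 and 3195 in DMSO at 24 h and 739.8, 533 and 901 in entinostat. At 48 h it read 3221, 3515.5 and 3515 in DMSO and 1250.3, 1050.2 and 1295 in entinostat. The log2 fold change was -2.02 (standard error 0.15, adjusted p = 1.04e-06 from limma) at 24 h and -1.52 (adjusted p = 9.85e-06) at 48 h. Probe set 220830_at read 581, 593 and 707 in DMSO at 24 h and 135, 150.1 and 183 in entinostat. At 48 h the readings were 692, 805 and 733 in DMSO and 279.9, 209.8 and 259.7 in entinostat. The groups did not overlap in either probe set. The log2 fold change of 220830_at was -2.01 (standard error 0.13, adjusted p = 2.47e-07) at 24 h and -1.58 (adjusted p = 1.48e-06) at 48 h. The interactions of 0.50 (adjusted p = 0.351) and 0.43 (adjusted p = 0.333) did not pass.

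The 3 members that act in the light response itself, PDE6H, GNB3 and RCVRN, moved in different directions. PDE6H, the inhibitory subunit of the cone phosphodiesterase, rose from a level near the background. Its probe set 206841_at read 61.5, 59.5 and 62.9 in DMSO at 24 h and 124, 105 and 116 in entinostat. At 48 h it read 64.7, 62.2 and 61.2 in DMSO and 197, 191.5 and 158 in entinostat. Every entinostat array lay above every DMSO array, and the 48 h entinostat arrays lay above the 24 h ones. The log2 fold change was 0.90 (standard error 0.08, adjusted p = 5.37e-06 from limma) at 24 h and 1.53 (adjusted p = 6.57e-08) at 48 h. With 30 subtracted from every intensity to take off part of the background, these were 1.43 and 2.21.

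GNB3, the beta subunit of cone transducin, fell at both times, and more at 48 h. Probe set 206047_at read 247, 277 and 276 in DMSO at 24 h and 187, 224 and 230.2 in entinostat. The 48 h arrays read 350.5, 389 and 433.5 in DMSO and 152, 168 and 165 in entinostat. The groups did not overlap at either time, but the gap was narrow at 24 h. Entinostat gave a fold change of -0.32 on the log2 scale (standard error 0.09, adjusted p = 0.0237 from limma) at 24 h and -1.27 (adjusted p = 7.85e-07) at 48 h. The 24 h call was lost without DMSO replicate 2 (-0.29) or 3 (-0.30) or entinostat replicate 1 (-0.23) of 24 h.

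RCVRN, the calcium sensor recoverin of photoreceptors, was dim in all groups but higher in entinostat. Probe set 206203_at read 60.1, 62.7 and 59.0 in DMSO at 24 h and 68.5, 74.2 and 85.5 in entinostat. The 48 h values were 63.4, 64.1 and 62.7 in DMSO and 72.7, 79.2 and 76.2 in entinostat. The groups did not overlap at either time. Its log2 fold change was 0.32 (standard error 0.07, adjusted p = 0.00521 from limma) at 24 h and 0.26 (adjusted p = 0.0177) at 48 h, and with 30 subtracted 0.58 and 0.46. The 48 h call was lost without DMSO replicate 3 (0.25) or entinostat replicate 2 (0.23) of 48 h.

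AANAT, the enzyme that acetylates serotonin in the penultimate step of melatonin synthesis, had its main fall at 48 h. Probe set 207225_at read 194, 145 and 234 in DMSO at 24 h and 123, 126 and 161 in entinostat. After 48 h it read 232, 214 and 239.8 in DMSO and 78.5, 75.2 and 81.6 in entinostat. The 24 h groups overlapped, whereas at 48 h every entinostat array lay well below every DMSO array. Entinostat gave a fold change of -0.47 on the log2 scale (standard error 0.15, adjusted p = 0.0343 from limma) at 24 h and -1.54 (adjusted p = 6.01e-06) at 48 h. With 30 subtracted the 48 h value was -2.03, and the entinostat readings at that time lay under the dim limit of 128. The 24 h call was lost without DMSO replicate 1 (-0.44) or 3 (-0.31) or entinostat replicate 1 (-0.39) or 2 (-0.41) of 24 h, and in a fit of the 24 h arrays alone (adjusted p = 0.107).

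**Figure D2:**
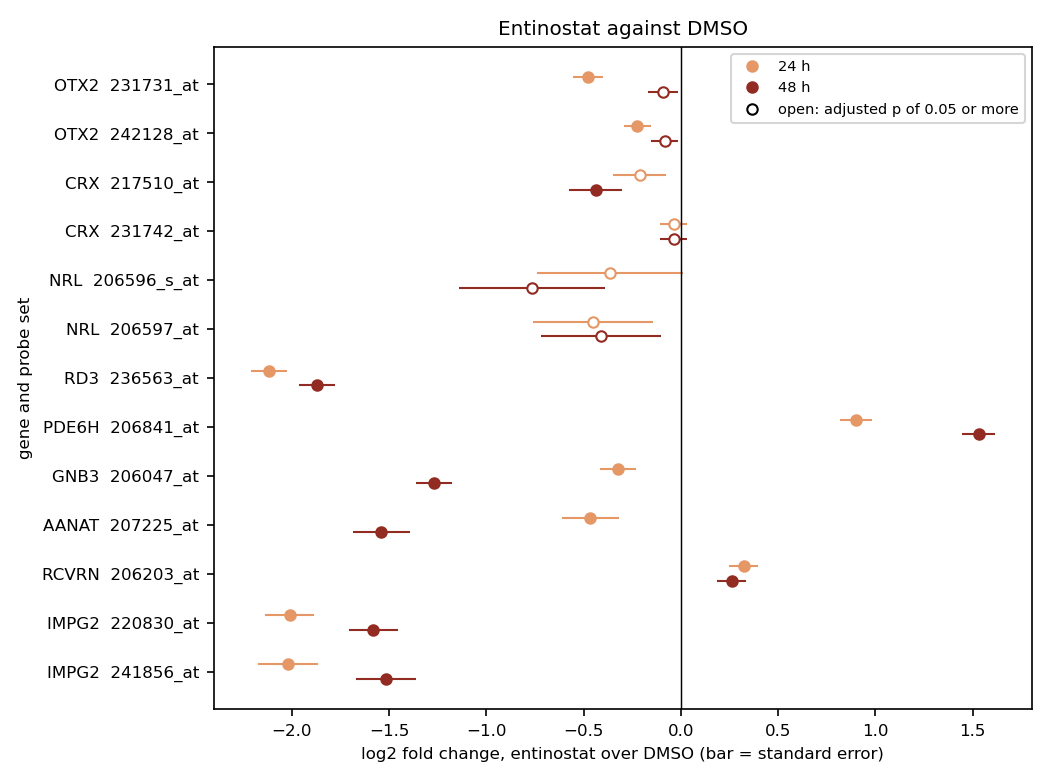
Log2 fold change of entinostat over DMSO for each probe set at 24 h and 48 h, with the standard error as a bar and open circles where the adjusted p was 0.05 or more. RD3 and IMPG2 lay near -2 at 24 h, GNB3 and AANAT lay further from 0 at 48 h than at 24 h, and PDE6H was the only gene of the 9 above 0.5.

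The effect of entinostat differed between 24 h and 48 h for PDE6H, GNB3 and AANAT. At an adjusted p under 0.05 from limma, the interaction was called for these 3 of the 13 probe sets, beside 1.21% of all probe sets. GNB3 had an interaction of -0.95 (standard error 0.13, adjusted p = 0.00759), and its call held whichever array was left out. AANAT had -1.08 (standard error 0.21, adjusted p = 0.0311). This call was lost when any of the 48 h arrays, or DMSO replicate 1 or entinostat replicate 2 or 3 of 24 h, was left out, with values from -1.13 to -0.95. The interaction of PDE6H was 0.63 (standard error 0.12, adjusted p = 0.0287). It was lost when any of the DMSO arrays, or entinostat replicate 2 or 3 of 24 h or 1 or 2 of 48 h, was left out, with values from 0.57 to 0.65. With 30 subtracted, both were larger and missed the threshold, AANAT at -1.46 (adjusted p = 0.054) and PDE6H at 0.78 (adjusted p = 0.0808).

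Each treatment was also compared with itself between 48 h and 24 h. In DMSO, GNB3 alone of the 13 probe sets was called, beside 0.359% of all probe sets. Its log2 difference, 48 h minus 24 h, was 0.55 (adjusted p = 0.0375 from limma), and the call was lost with 30 subtracted (0.61, adjusted p = 0.103). It was also lost when DMSO replicate 1 or 2 of 24 h or 2 or 3 of 48 h, entinostat replicate 2 of 24 h or any entinostat array of 48 h was left out, with values from 0.47 to 0.58. Both NRL probe sets had larger differences in DMSO, 1.08 (adjusted p = 0.277) and 0.96 (adjusted p = 0.233), with all 48 h DMSO arrays above all 24 h ones, but were not called. In entinostat 6 of the 13 were called, 4 higher and 2 lower at 48 h, beside 7.19% of all probe sets. PDE6H rose further by 0.67 on the log2 scale (adjusted p = 0.000773), and IMPG2 rose by 0.68 (adjusted p = 0.00739) and 0.75 (adjusted p = 0.0113) from its 24 h level. In DMSO both IMPG2 probe sets were also higher at 48 h, by 0.25 (adjusted p = 0.52 and 0.618), and their interactions did not pass. OTX2 rose by 0.37 in 231731_at (adjusted p = 0.0141), a call lost without entinostat replicate 1 (0.35) or 2 (0.31) of 24 h or 2 of 48 h (0.33). AANAT fell further, with -0.79 (adjusted p = 0.00685). GNB3 also fell further, with -0.40 (adjusted p = 0.0246), a call lost without entinostat replicate 2 (-0.36) or 3 (-0.34) of 24 h or 1 (-0.35) or 3 (-0.41) of 48 h.

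**Figure D3:**
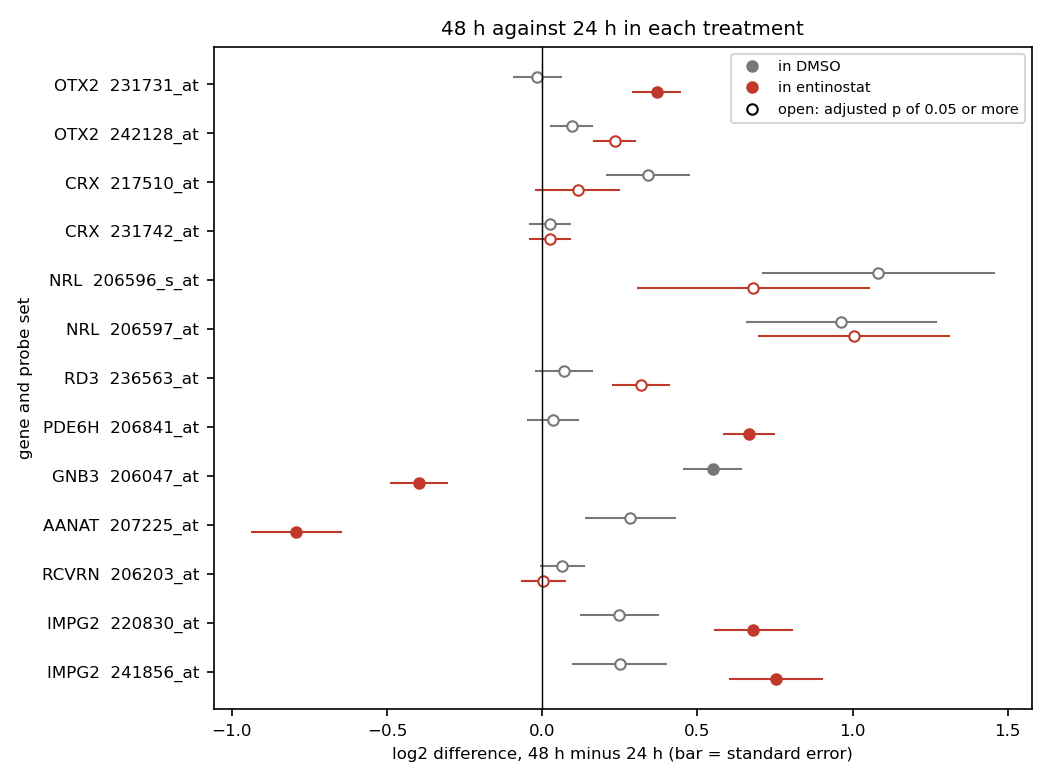
Log2 difference between 48 h and 24 h in DMSO (grey) and in entinostat (red) for each probe set, with the standard error as a bar and open circles where the adjusted p was 0.05 or more. GNB3 and AANAT lay above 0 in DMSO and below 0 in entinostat. PDE6H, IMPG2 and 1 OTX2 probe set rose in entinostat without a call in DMSO, but of these only PDE6H had a called interaction. IMPG2 lay above 0 in DMSO too.

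Other genes of the same pathways also moved in both directions. Of 76 further photoreceptor and pineal genes, 67 had a probe set with a single symbol, and 38 of these were dim. With each gene represented by its probe set of the highest mean, 19 of the 67 rose in the additive model, 10 fell and 38 were not called, beside 21% of all genes higher and 19.7% lower. Their median log2 fold change was 0.06, and that of all genes -0.02. With dim probe sets left out, 12 of 29 were higher and 6 lower (41.4% and 20.7%), beside 33.5% and 34.2% of the 10092 genes then tested. The counts for each list below include its members among the 9 genes. They use the same probe set choice, and stand beside the same 21% of all genes higher and 19.7% lower.

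Among the transcription factors of photoreceptors, 3 of 15 rose in the additive model, 3 fell and 9 were not called. Of the 3 that fell, OTX2 and CRX are described above and NR2E3 is the other. THRB, the thyroid hormone receptor that specifies long-wavelength cones, rose from a mean of 174 to 604 at 24 h and from 163 to 716 at 48 h, a log2 fold change of 1.97 over both times (adjusted p = 2.05e-09 from limma). RORB, a nuclear receptor needed for rods, rose by 0.76 (log2). NR2E3, the rod factor downstream of NRL, fell by a log2 fold change of -0.22 (adjusted p = 0.0351) and SIX6, an eye field factor, rose by 0.20 (log2; adjusted p = 0.0121), both from dim levels.

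In rod phototransduction 5 of 15 genes were higher, 1 was lower and 9 were not called. SAG, the rod arrestin, rose from a mean of 98.4 to 252 at 24 h and from 119.8 to 464 at 48 h, with log2 fold changes of 1.26 and 1.95. PDE6A, the alpha subunit of the rod phosphodiesterase, fell at 48 h (log2 fold change -1.38) and was not called at 24 h (-0.46, adjusted p = 0.107 from limma). The G protein beta subunits GNB5 and GNB1, also used outside the retina, rose by 0.59 (log2) and 0.53 over both times. GNAT1, the rod transducin alpha subunit, was dim, with means between 65.8 and 77.3.

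In cone phototransduction 3 of 10 genes were higher, 3 lower and 4 not called. Beside GNB3, the other subunits of cone transducin also fell over both times, GNAT2 (alpha) with -0.51 and GNGT2 (gamma) with -0.51, GNAT2 from dim levels. ARR3, the cone arrestin, rose by 0.52 (log2), and PDE6C, the catalytic subunit that PDE6H inhibits, with 0.44 (adjusted p = 0.0246 from limma) at dim levels. OPN1SW, the short-wavelength opsin, was dim.

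Of the guanylate cyclase list, which also holds PDE6D and RDH12, 2 of 7 genes were higher, 3 lower and 2 not called. GUCA1A and GUCA1C, calcium-binding activators of the cyclases, were among the lower genes, as was RD3. GUCA1A fell from a mean of 215 to 104 at 24 h and from 560.1 to 121 at 48 h, with log2 fold changes of -2.20 at 48 h and -1.60 over both times. GUCA1C fell too (log2 fold change -1.69 at 48 h and -1.32 over both times), and its DMSO mean was 329 at 24 h and 623 at 48 h. The 2 higher genes are neither cyclases nor their regulators. PDE6D, a carrier of prenylated proteins, rose by 0.56 (log2) over both times. RDH12, a retinol dehydrogenase, rose by 0.30 at dim levels and was not called at 48 h (0.18, adjusted p = 0.121 from limma). The cyclases GUCY2D and GUCY2F were dim and not called.

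Among genes of the outer segment, the connecting cilium and the photoreceptor matrix, 6 of 22 were higher, 5 lower and 11 not called. RBP3, the retinoid carrier of the same matrix as IMPG2, fell by a log2 fold change of -0.71 over both times and ROM1, a disc rim protein, with -0.53. UNC119, a carrier of transducin, rose by 0.74 (log2) and RPGR, a cilium protein, with 0.63. In melatonin synthesis 2 of 7 were higher, 1, AANAT, was lower and 4 were not called. GCH1, which makes the cofactor needed to synthesize serotonin, rose from a mean of 445 to 2649.6 at 24 h and from 495 to 1989 at 48 h (2.29 over both times, adjusted p = 6.84e-09 from limma). DDC, which makes serotonin, rose by 0.19 (log2; adjusted p = 0.0276) from dim levels, while TPH1 and ASMT, the first and last enzymes of the pathway, were dim.

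**Figure D4:**
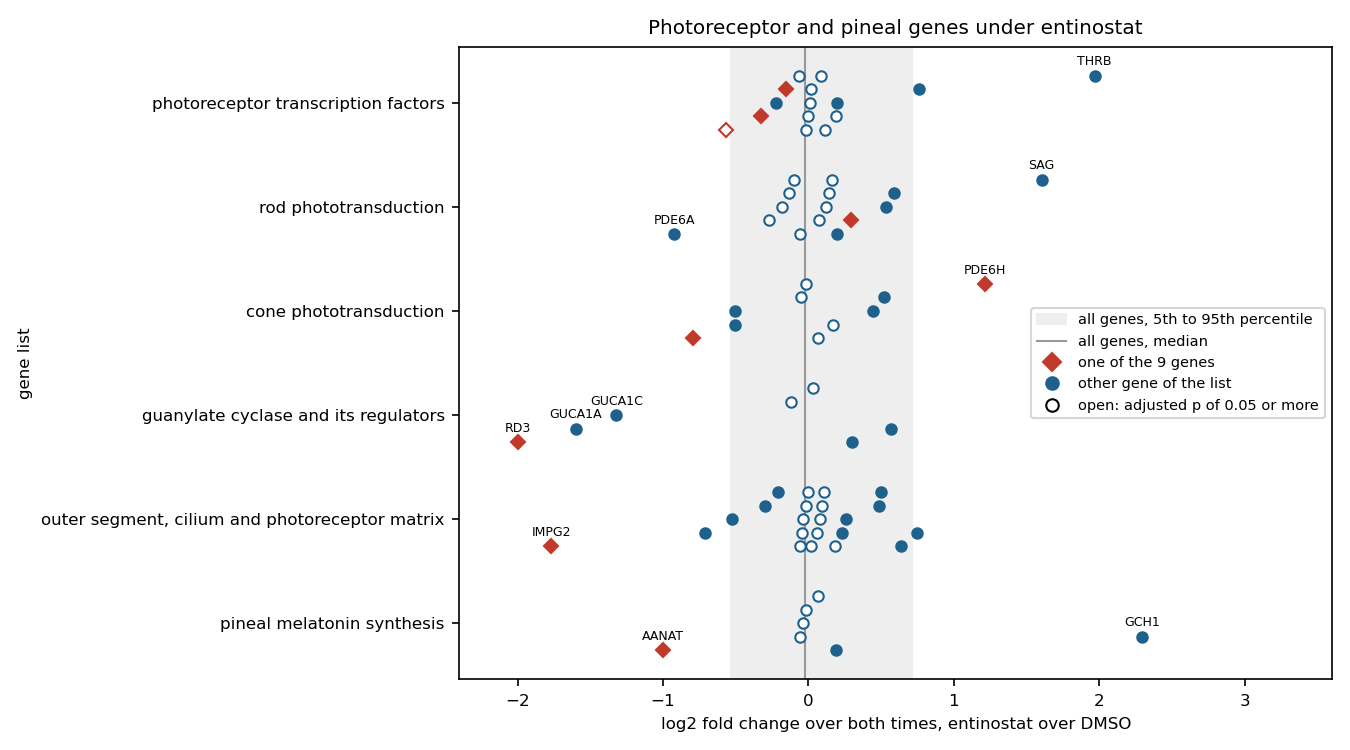
Log2 fold change over both times of each measured gene in 6 lists, the 9 genes as red diamonds and the others as blue circles, open where the adjusted p was 0.05 or more; the grey band spans the 5th to 95th percentile of all genes (-0.53 to 0.71) and the line their median. Each list holds genes on both sides of 0, with RD3, GUCA1A and GUCA1C at the low end of the cyclase list and THRB, SAG and GCH1 at the high end of theirs.

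The labelled cell type was set against subgroup markers. Of 6 group 3 markers, IMPG2, NRL and GABRA5, a GABA receptor subunit, were above the dim limit, and EYS, MAB21L2 and NPR3 were dim. GABRA5 fell from a mean of 924 to 270.4 at 24 h and from 896 to 207 at 48 h, a log2 fold change of -1.95 over both times (adjusted p = 2.41e-10 from limma), so that 2 of the 6 markers fell and none rose, beside 19.7% of all genes lower and 21% higher. Markers of the other subgroups were dim in 4 of 6 (group 4), 5 of 6 (SHH) and 4 of 5 (WNT). Above the dim limit were RBM24 and, in entinostat at 48 h alone, UNC5D (group 4), PDLIM3 (SHH) and TNC (WNT), with DMSO means at 24 h of 439 for RBM24, 1148 for PDLIM3 and 1669.7 for TNC. Of 13 measured markers of glia, immune cells, vessels and fibroblasts, 11 were dim.

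Genes with the closest pattern over the 12 arrays were sought for the members with a called log2 fold change over both times of at least 0.5 in size, RD3, PDE6H, GNB3, AANAT and IMPG2. The measure was the root mean square difference of log2 profiles, each centred on its own mean, among genes with a mean log2 of at least 7. For PDE6H these were IGSF11 (0.10), RTBDN (0.12) and PKM (0.13), for RD3 PGM5-AS1 (0.19), LRRC34 (0.20) and CFLAR (0.20), and for IMPG2 HMGA2 (0.15), TBR1 (0.15) and RD3 (0.26). For GNB3 they were PHYHD1 (0.15), SERPINF1 (0.16) and THBS4 (0.17), and for AANAT MARCKSL1 (0.17), ERFE (0.17) and E2F7 (0.18). Profiles of this kind share the treatment contrast and the arrays, and the differences are given as a description.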

How the data were processed

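RNA of HD-MB03 cells was measured on 12 arrays in 4 groups of 3. The authors' methods name GCRMA normalization and log2 transformation. The deposited intensities are on a linear scale, with a background level left in them, so log2 was taken here, and their exact export is not given in the sources used here. The number of arrays limits the precision. Without the 62 controls, 54613 probe sets entered the tests (2 empty cells). Of these 41091 carry 1 gene symbol, 1801 several and 11721 none, and only the first name a gene. Symbols of 41037 were brought up to date by gene ID, and no probe set with several symbols named a member.

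The 4 group means were fitted together with limma 3.58.1 (R 4.3.3), and an additive model of treatment and time was fitted beside it. P-values were adjusted by Benjamini-Hochberg over every tested probe set, with a threshold of 0.05. The procedure was tested on simulated data. The members, gene lists and tests were chosen with earlier results of these data known. Named are all members, up to 4 called genes per list with the largest changes, defining rod, cone and melatonin genes, and the 3 closest patterns of each member whose called log2 fold change over both times was at least 0.5 in size. Some listed photoreceptor genes were not analysed here. Alternatives were quantile normalization, centred arrays, 30 subtracted, dim probe sets left out, separate fits per time, a replicate block, another variance prior, other representative probe sets, and each array left out in turn. Those for the time comparisons were added after the data were seen. Promoter sequences came from RefSeq (GRCh38.p14).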

Additional observations from a re-analysis of the deposited data

Results flagged for a closer look

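The effect of entinostat differed between 24 h and 48 h by the interaction term in limma for 3 of the 13 probe sets, beside 1.21% of all probe sets. The log2 fold change of PDE6H was larger at 48 h by 0.63, above DMSO on 3 of 3 entinostat arrays at each time. That of GNB3 differed by -0.95 and that of AANAT by -1.08, both further below DMSO at 48 h. The call of GNB3 alone held in all refits without 1 array, as given with the results above.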

How the results depend on the processing

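Of the refits that each left out 1 array, 712 of 780 values kept their direction and side of the threshold, 60 lost a call, 7 gained one and 1 turned its sign, the dim CRX probe set 231742_at without entinostat replicate 1 of 24 h (0.019, the highest of its refits, the lowest being -0.078). The counts of called probe sets ranged from 6 to 9 at 24 h, 6 to 8 at 48 h and 8 to 11 over both times in these refits, from 1 to 3 for the interaction, and from 0 to 1 for DMSO and 4 to 7 for entinostat between the times. With 30 subtracted, 1 interaction and 0 DMSO time differences were called. With dim probe sets left out, 12 of 29 pathway genes were higher and 6 lower, beside 33.5% and 34.2% of the 10092 genes then tested. Fewer probe sets are tested there, and a probe set bright in 1 group alone is kept. With the probe set of the strongest effect, 24 of 67 were higher and 11 lower. This choice favours calls in any gene with several probe sets, and the share of all genes under it was not computed. Among other alternatives, 386 of 410 values stayed on their side. The 24 h call of OTX2 242128_at was lost with quantile normalization (adjusted p = 0.0529 from limma), with 30 subtracted (0.0753) and in a fit of 24 h alone (0.0516). Over both times its call was lost with quantile normalization (0.0735), with 30 subtracted (0.0783) and in 6 of 12 refits without 1 array, and that of CRX 217510_at in 4 of 12.

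Replicate numbers did not pair the arrays by the criterion used, a correlation of deviations over 0.1 in every same-numbered pair: 11 of 18 pairs exceeded it (-0.0647 to 0.311). The criterion is strict, and missing it does not show that the arrays were unpaired. Of 36 matches, each among the 3 arrays of another group, 28 were best with the same number. With the replicate block, 9 probe sets were called at 24 h, 9 at 48 h, 11 over both times, 3 for the interaction, and 3 in DMSO and 7 in entinostat between the times. The shares of all probe sets called with the block were not computed, so these counts have no background beside them. NRL, whose array numbered 3 was the highest in every group, was then called over both times (-0.57, adjusted p = 0.00965 from limma, and -0.43, adjusted p = 0.00475), in 206597_at at 24 h (adjusted p = 0.0421), in 206596_s_at at 48 h (0.0132), between the times in DMSO (1.08 and 0.96) and, in 206597_at, in entinostat (adjusted p = 0.00301). OTX2 242128_at was not called with the block at 24 h (adjusted p = 0.0508) or over both times (0.0543).

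Background left in the values limits dim readings, here RCVRN, CRX, PDE6H in DMSO and AANAT in entinostat. With 30 subtracted, the 48 h log2 fold change was 0.46 against 0.26 for RCVRN and 2.21 against 1.53 for PDE6H. It was -2.03 against -1.54 for AANAT, -0.59 against -0.44 for CRX 217510_at and -0.09 against -0.04 for CRX 231742_at. The background itself was not measured and the values carry no detection call. Whether the fold changes of the main fit are understated was therefore not tested.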

Other observations

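Genes of neighbouring retinal cell types, which the results above do not cover, were counted over both times in the same way (adjusted p under 0.05 from limma), where 21% of all genes were higher and 19.7% lower. Of 10 measured genes of the retinal pigment epithelium, 7 were dim, 4 were higher, 2 lower and 4 not called. RPE65, the isomerase that regenerates visual pigment, rose with a log2 fold change of 0.78, PMEL, a melanosome protein, with 0.49 and MITF, the pigment cell factor, with 0.35, all at dim or nearly dim levels, and SERPINF1, the secreted factor PEDF, fell with -0.77 from a DMSO mean of 1832 at 24 h. Of 8 genes of retinal bipolar cells, 7 were dim, 1 was higher (CABP5, a calcium-binding protein, 0.67), 1 lower (TRPM1, a cation channel, -0.56) and 6 not called.

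In the marker lists of the other medulloblastoma subgroups, 1 of 6 group 4 genes was higher (UNC5D, a netrin receptor, 0.83), 3 of 6 SHH genes (HHIP, 0.66, SFRP1, 0.35, and ADAMTSL1, 0.20) and 2 of 5 WNT genes (GAD1, 0.85, and WIF1, 0.19), and none was lower, beside the same 21% and 19.7% of all genes. Apart from UNC5D these were dim in all groups. Of the markers of other cell types, VWF of vessels was higher (0.14, dim), SLC1A3, a glutamate transporter of glia, fell by 1.00 on the log2 scale, and MBP of myelin was lower (-0.24). The part of such cells in the changes of the photoreceptor genes was not tested.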
